A study of Carassius gibelio with 26 samples.

Results

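A set of 100 genes that were low in the testes of triploid gibel carp of group 1, relative to the testes of all other males, is described here, out of 62131 genes in the count table. Levels are in CPM, the count of a gene divided by the total of its library, times 1000000. For each of the 62094 genes outside the mitochondrial genome, the lowest CPM of the 21 libraries outside group 1, plus 0.5, was divided by the highest CPM of the 5 group 1 libraries, plus 0.5. The 100 genes with the highest ratio are the members, and they are called below by their rank in it. Because these values chose them, the members' lower level in group 1 is a description and carries no test.

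Testes came from 26 aquarium-reared males of gibel carp (Carassius gibelio) 2 years of age, with 1 library per male. Group 1 held 5 triploid males labelled 28 to 31 °C, offspring of a gynogenetic female whose young turned male at high temperature and not at 22 °C. Their library names give 31 °C for replicates 1 to 3 and 28 °C for replicates 4 and 5. Group 2 held 5 triploid males labelled 28 to 31 °C, with 31 °C in every library name, and group 3 held 6 triploid males labelled 22 °C. In groups 2 and 3 the mother was a gynogenetic female many of whose young turned male at 22 °C too. The 10 diploid males (2n) came from sexual crosses at 22 °C and were male by genotype. Eggs of all triploid groups were activated by sperm of gibel carp, common carp (Cyprinus carpio) or bream (Abramis brama), and the labels do not say which for a given male. A second number in the library name has no stated meaning; it was 4, 5 or 6 for males of group 1, always 11 for group 2, 11 or 12 for group 3, and 14, 106 or 108 for 2n. Group 1 differed from groups 2 and 3 in its mothers, and from group 3 and 2n in temperature too, and all triploid groups differed from 2n in ploidy, parents and mode of reproduction, so these cannot be told apart. Males of 1 mother are siblings, and p-values then measure the spread between related males.

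In gynogenesis, sperm starts the development of an egg without passing on its genes, so the young inherit their mother's genome alone. In many fishes, warmth during early life can turn the gonad of a genetic female into a testis. A testis holds germ cells at every step from spermatogonium to sperm, together with Sertoli cells, which nurse them, and Leydig cells, which make androgens. In bulk RNA, fewer cells of a type and less RNA per cell cannot be told apart.

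Library totals ran from 15375923 to 29503544 counts. Reads of gibel carp had been counted on the annotated genes of the goldfish, and the files pair no gene ID with a name. A table of 98729 gibel carp genes matched 0 of the IDs. Members are therefore given by position in the goldfish assembly ASM336829v1, their functions are not stated, and the testis label was not checked against marker genes. Group 1 replicates 1 and 2 stood apart from the other libraries, with TMM normalization factors of 1.52 and 1.45, against 0.776 to 1.2 in the other 24.

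The members ranged from genes near zero in group 1 to genes only slightly below all other males. Every group 1 library lay below every other library in 248 of 62094 genes on the scale of the ratio (0.399%), and the members are the first 100 of these. The ratio ran from 3.67 at rank 1 to 1.11 at rank 100, with a median of 1.24. The mean CPM of the 21 other libraries was 1.39 to 64.5 times that of group 1, with a median of 3.05, and the highest of these folds rests on 3 counts in group 1. By this fold, 12 members were 10-fold or more lower in group 1, 22 were 4-fold to 10-fold lower, 48 were 2-fold to 4-fold lower and 18 were under 2-fold lower. In group 1, 20 members averaged under 1 CPM, 5 had 0 counts in at least 1 library and 0 were at 0 in all 5 libraries. The median fold was 3.1 against groups 2 and 3 and 2.91 against 2n. Without group 1 replicates 1 and 2 the median fold was 2.87, and 76 members were at least 2-fold lower, against 82 with all 5 males. These are the members chosen with all 5 males, so their lower level in the remaining males was set by the rule. When the rule was run without replicates 1 and 2, fewer of the members were kept, as given at the end. With libraries scaled by TMM, 99 of the members kept every group 1 male below every other male, and this number was 97 with relative log expression and 95 with upper quartile scaling. The members were chosen for this order, so these counts were nearly set in advance and are no test. They were not made over all genes under these scalings. Choosing anew on TMM-scaled libraries kept far fewer of the members, as given at the end.

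Summed over the members, the level was 978, 1072, 1253, 1328 and 1302 CPM in group 1 replicates 1 to 5, from 2903 to 3107 CPM in group 2, from 2796 to 3181 CPM in group 3 and from 2455 to 3496 CPM in 2n. The 5 group 1 males lay below all 21 others, as the choice of members sets. The lowest library outside group 1 was a 2n male for 74 members, a group 2 male for 13 and a group 3 male for 13.

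**Figure D1:**
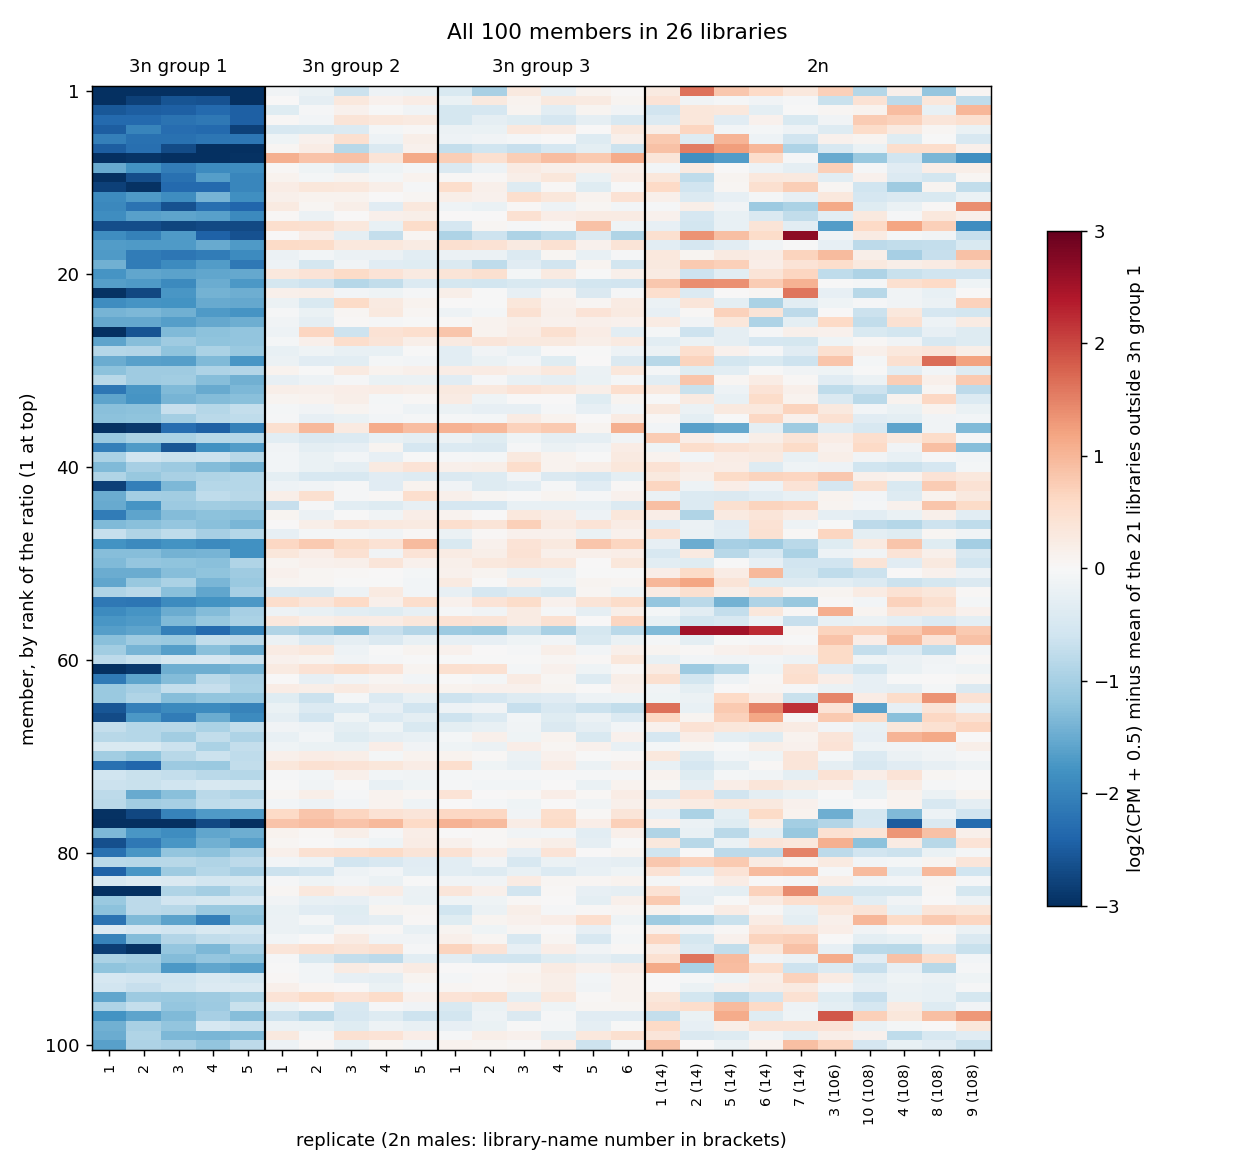
Level of the 100 members (rows, by rank) in the 26 libraries (columns), as log2(CPM + 0.5) minus the mean of the 21 libraries outside group 1; blue is lower and red is higher. The 5 group 1 columns are blue in every row by construction, and most of the red and blue outside them lies in the 10 diploid males.

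The member with the highest ratio was ENSCARG00000025744, on chromosome 47 from 15718664 to 15728186 on the plus strand, with 6 exons. It stood at 2.64, 2.49, 2.49, 1.96 and 2.12 CPM in group 1, at 23.1, 21.7, 15.9, 22.6 and 21.7 CPM in group 2, at 12.6 to 30.9 CPM in group 3 (median 23.5) and at 11.0 to 79 CPM in 2n (median 30.9). The group 1 males were close together, while the diploid males spanned a wide range, and the mean was 11.9-fold lower in group 1 than in the 21 other males. The second, ENSCARG00000069711, lies on the unplaced scaffold QPKE01007384.1 from 874171 to 948778 on the plus strand and has 19 exons. It had 0.978, 1.27, 1.53, 1.5 and 0.864 CPM in group 1, against 11.9, 9.71, 14.9, 12.8 and 13.9 CPM in group 2, 10.1 to 14.6 CPM in group 3 (median 13.6) and 6.68 to 16 CPM in 2n (median 11.3). Groups 2, 3 and 2n overlapped, and group 1 was 9.89-fold lower.

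Ranks 3 to 6 were genes of low level that nearly vanished in group 1. Rank 3 (chromosome 13, 25167973 to 25170166, plus strand, 3 exons) had 0.34, 0.38, 0.393, 0.461 and 0.393 CPM in group 1, against 3.29, 4.29, 4.84, 4.35 and 4.04 CPM in group 2, 2.87 to 4.67 CPM in group 3 (median 3.74) and 2.78 to 9.17 CPM in 2n (median 4.69). Its 5 group 1 values rested on 48 counts in all and were 11.7-fold lower. Rank 4 (scaffold QPKE01007863.1, 296749 to 385140, plus strand, 14 exons) had 0.0425, 0.0422, 0.0873, 0.115 and 0 CPM in group 1, against 2.3, 2.09, 3.03, 2.88 and 2.8 CPM in group 2, 1.4 to 1.76 CPM in group 3 (median 1.53) and 1.5 to 4.13 CPM in 2n (median 2.71). It was nearly absent from group 1, with 7 counts over 5 libraries, a 40.6-fold lower mean. Rank 5 (chromosome 9, 28463221 to 28466615, plus strand, 4 exons) had 0.128, 0.38, 0.218, 0.192 and 0 CPM in group 1, against 1.99, 2.05, 2.13, 2.88 and 3.06 CPM in group 2, 2.56 to 3.86 CPM in group 3 (median 3.34) and 2.19 to 5 CPM in 2n (median 3.0). Rank 6 (chromosome 28, 23382914 to 23385359, minus strand, 5 exons) had 0.17, 0.0845, 0.0873, 0.115 and 0.118 CPM in group 1, against 2.04, 2.53, 3.36, 1.98 and 2.62 CPM in group 2, 1.62 to 2.57 CPM in group 3 (median 2.13) and 1.37 to 5.15 CPM in 2n (median 2.13). Both were low in all 5 group 1 males, 16.8-fold at rank 5 and 20.7-fold at rank 6. These folds rest on 22 and 14 counts in group 1.

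Ranks 7 to 10 showed other shapes. Rank 7 (scaffold QPKE01008401.1, 17482 to 24561, plus strand, 1 exon of 7080 bp) had 18, 20.9, 15.4, 11.1 and 8.84 CPM in group 1, against 106, 119, 57.1, 75.4 and 111 CPM in group 2, 61.4 to 83.3 CPM in group 3 (median 66.3) and 53.3 to 296 CPM in 2n (median 147). Here group 1 still had a clear level, with a 7.81-fold lower mean. Rank 8 (chromosome 27, 14477193 to 14479902, plus strand, 2 exons) had 0.213, 0.253, 0.131, 0.23 and 0.236 CPM in group 1, against 11.5, 9.99, 10.0, 6.97 and 12.1 CPM in group 2, 7.55 to 11.9 CPM in group 3 (median 9.23) and 1.1 to 7.81 CPM in 2n (median 1.95). All diploid males lay above group 1, and the highest of them (7.81 CPM) above the lowest males of groups 2 and 3. Rank 9 (chromosome 12, 12345386 to 12349291, plus strand, 10 exons) had 3.91, 3.17, 2.49, 2.92 and 2.99 CPM in group 1, against 12.5, 11.1, 9.68, 11.0 and 11.5 CPM in group 2, 8.81 to 14.4 CPM in group 3 (median 13.5) and 9.42 to 20.3 CPM in 2n (median 12.1). Rank 10 (chromosome 10, 19167315 to 19371845, minus strand, 22 exons) had 6.63, 8.87, 12.0, 18.1 and 14.7 CPM in group 1, against 63.2, 56.1, 61.9, 55.7 and 62.9 CPM in group 2, 51.0 to 73.5 CPM in group 3 (median 63.0) and 34.0 to 74.2 CPM in 2n (median 61.3). The mean was 3.98-fold lower at rank 9 and 4.93-fold lower at rank 10.

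**Figure D2:**
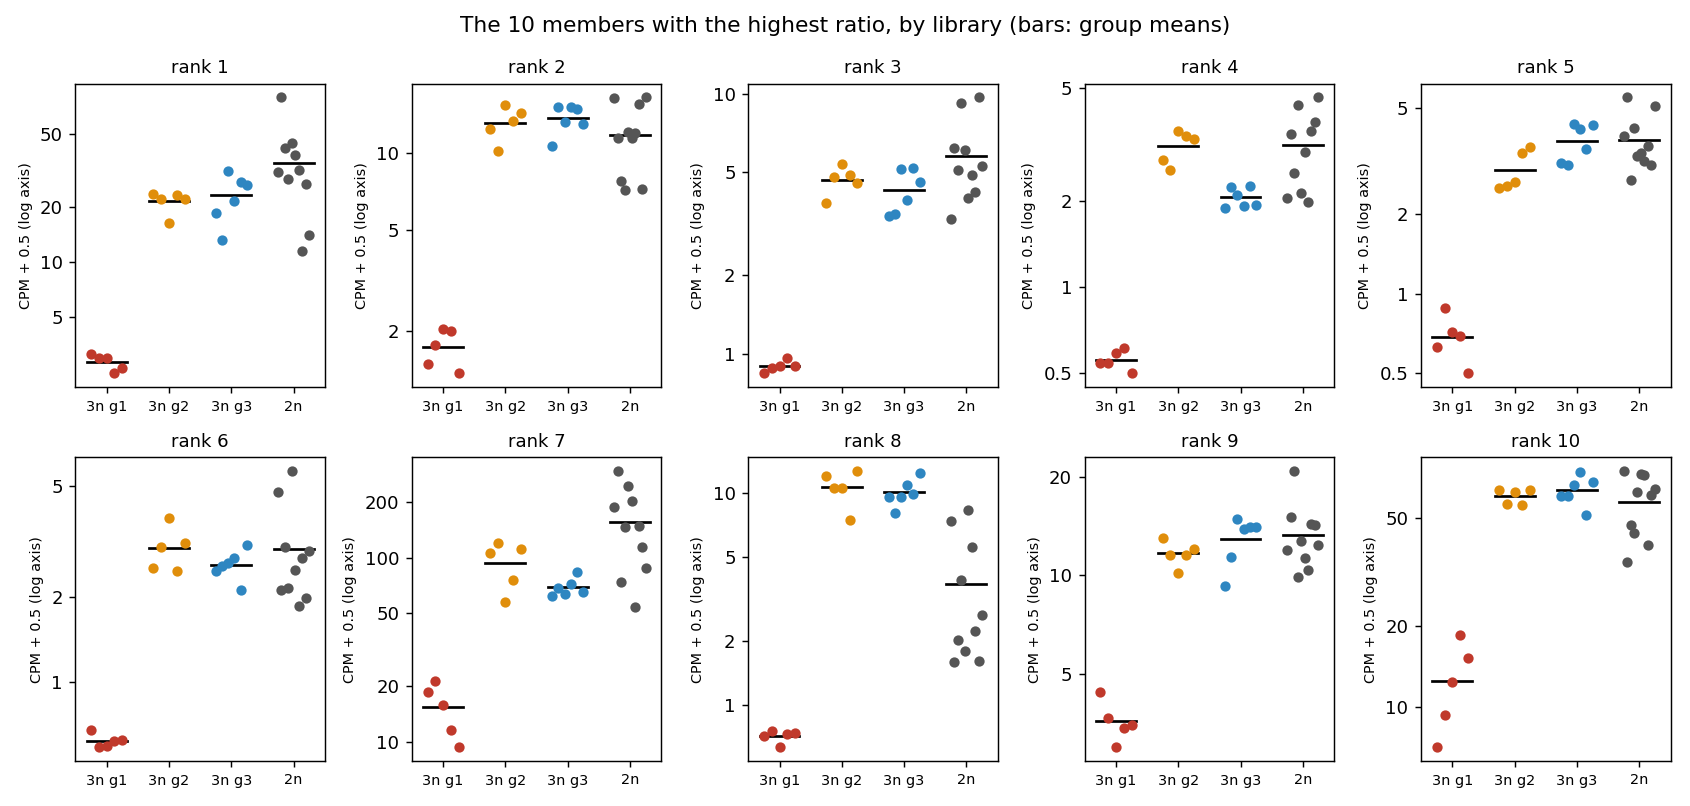
CPM + 0.5 on a log axis for ranks 1 to 10, with 1 point per library, bars at group means, and groups from left to right 3n group 1, 3n group 2, 3n group 3 and 2n. Group 1 lies below all other points in each panel, by the rule; at rank 8 most diploid males (1.1 to 7.81 CPM) also lie below groups 2 and 3 (6.97 to 12.1 CPM).

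Of the 12 members that were 10-fold or more lower, 6 lay outside ranks 1 to 10, since the rule sets extremes and not means against each other; they were picked here after their values were seen. Rank 48 (chromosome 16, 22977516 to 22982171, plus strand, 1 exon of 4656 bp) had 3 counts in all 5 group 1 males together and 802 in the 21 other males. Its pooled level was 67.6-fold lower in group 1, with an exact 95% counting interval of 23.1 to 329, which covers counting error only. The interval leaves out the spread between males and the choice of rank 48 by these same values, so it is no test. The highest group 1 library at rank 48 had 0.0436 CPM, whereas group 2 had 2.43, 2.73, 2.32, 2.07 and 3.18 CPM, group 3 had 0.884 to 2.86 CPM (median 1.9) and 2n had 0.176 to 2.85 CPM (median 0.773). Rank 15 (chromosome 27, 2574610 to 2579265, plus strand) also has 1 exon of 4656 bp. It had 0.17, 0.169, 0.131, 0.154 and 0.157 CPM in group 1, against 5.59, 5.46, 4.84, 3.14 and 5.76 CPM in group 2, 2.51 to 7.3 CPM in group 3 (median 3.76) and 0.676 to 9.19 CPM in 2n (median 3.13). The mean was 27.3-fold lower in group 1. It rested on 19 counts in all, too few to show how even the group 1 males were.

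Rank 77 (chromosome 38, 4562071 to 4567355, plus strand, 13 exons) had 0.298, 0.211, 0.96, 1.54 and 1.14 CPM in group 1, against 23.7, 24.8, 23.5, 25.8 and 19.7 CPM in group 2, 14.7 to 26.9 CPM in group 3 (median 20.3) and 1.86 to 14.7 CPM in 2n (median 9.09). It was 18.7-fold lower in group 1 and just above it in the lowest diploid male. Rank 36 (chromosome 5, 10189321 to 10189835, minus strand, 2 exons) had 0.34, 0.38, 0.83, 0.691 and 1.1 CPM in group 1, against 8.62, 12.3, 7.36, 13.6 and 11.8 CPM in group 2, 6.39 to 13.2 CPM in group 3 (median 11.5) and 1.62 to 5.66 CPM in 2n (median 3.39). Rank 78 (scaffold QPKE01006473.1, 72548 to 297077, minus strand, 23 exons) had 0.213, 0.0422, 0, 0.115 and 0.157 CPM in group 1, against 1.47, 1.36, 1.55, 1.29 and 1.61 CPM in group 2, 0.954 to 1.53 CPM in group 3 (median 1.27) and 0.325 to 4.03 CPM in 2n (median 1.3). Both were low in every group 1 male, 11-fold at rank 36 and 13.8-fold at rank 78. These folds rest on 82 and 13 counts in group 1. Rank 54 (chromosome 15, 22802183 to 22805685, minus strand, 4 exons) had 0.128, 0.127, 0.262, 0.307 and 0.354 CPM in group 1, against 3.51, 3.09, 3.74, 2.63 and 3.51 CPM in group 2, 2.57 to 3.62 CPM in group 3 (median 3.19) and 0.55 to 4.03 CPM in 2n (median 1.61), and was 10.8-fold lower.

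The 5 members with the highest mean CPM in the 21 other males lay between 1.39-fold and 3.86-fold lower in group 1. They are rank 26 (chromosome 47, 10607072 to 10626962), rank 63 (chromosome 21, 14168091 to 14182314), rank 83 (chromosome 17, 19352752 to 19363686), rank 79 (scaffold QPKE01000241.1, 65586 to 99558) and rank 62 (chromosome 30, 23952432 to 23961488). Per kilobase of exon, rank 26 averaged 25 CPM in group 1, 96.9 CPM in group 2, 101.3 CPM in group 3 and 70.9 CPM in 2n. Per kilobase, rank 83 averaged 43.2 CPM in group 1, 56.3 CPM in group 2, 61.9 CPM in group 3 and 60.9 CPM in 2n, the smallest fold of all members at 1.39. In CPM not scaled to length, rank 26 had 18, 30.4, 73.3, 78.8 and 81.8 in group 1, against 167, 291, 120, 251 and 265 in group 2, 150 to 330 in group 3 (median 217) and 120 to 205 in 2n (median 155). Replicates 1 and 2 were far below the other group 1 males at rank 26. At rank 83 the group 1 males were even, with 129, 138, 134, 123 and 124 CPM, against 176, 165, 169, 158 and 177 CPM in group 2, 166 to 213 CPM in group 3 (median 187) and 166 to 212 CPM in 2n (median 179). The fold was 3.86 at rank 79, 2.5 at rank 62 and 1.86 at rank 63.

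The last members lay very near the limit. Rank 99 (scaffold QPKE01005256.1, 21 to 3563) had 2.7 CPM in its highest group 1 male and 3.05 CPM in its lowest other male. Rank 100 (chromosome 9, 54 to 27570) had 2.44 CPM in group 1 and 2.75 CPM in the other males by the same measures. Just outside, the first gene (scaffold QPKE01000855.1, 104495 to 108572) had 22.4 CPM in group 1 and 24.9 CPM in the others, and the next (chromosome 41, 7368641 to 7370370) had 8.76 CPM in group 1 and 9.74 CPM in the others. The ratio was 1.11 in all 4, so the limit of 100 does not mark a step in the data.

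Within group 1, the males did not contribute equally. The highest group 1 level was in replicate 4 for 30 members, in replicate 5 for 29, in replicate 1 for 19, in replicate 2 for 13 and in replicate 3 for 9. The lowest was in replicate 1 for 43 members, in replicate 3 for 19, in replicate 2 for 16, in replicate 5 for 14 and in replicate 4 for 8. The 2 males whose library names give 28 °C are replicates 4 and 5. They had the largest member sums (1328 and 1302 CPM), above the 3 males at 31 °C (978, 1072 and 1253 CPM). Member by member, both lay above all 3 males at 31 °C for 34 members and below all 3 for 8. The 31 °C males include replicates 1 and 2, the libraries that stood apart, and the part of temperature was not tested. Replicates 1 and 5, which share name number 4, had the lowest and the second highest sum. After TMM scaling, the highest level within group 1 fell to replicate 4 or 5 for 79 members, and the lowest to replicate 1 or 2 for 86, against 59 and 59 on column totals. On TMM-scaled CPM, the median difference of the members from their own group 1 median was -0.50 in replicate 1 and -0.33 in replicate 2 on the log2 scale, while the median of 32683 genes at or above the lowest mean CPM of a member (1.13 CPM in the 21 other libraries) was 0 in both. On column totals the members had -0.14 in replicate 1 and -0.0004 in replicate 2, and the 32683 genes had 0.32 and 0.27. The rule capped the highest group 1 CPM on column totals, where genes in general were higher in replicates 1 and 2. Scaling by TMM then lowered these 2 males for every gene. The differences between the members and the 32683 genes are thus not independent of the choice, and are no test. The counts of highest and lowest libraries, and those by temperature, were not made over all genes.

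The spread between males was lower for the members than for other genes in each triploid group, and higher in 2n. The rule set the highest group 1 library against the lowest other library, so the spread of the members is not independent of their choice. The coefficient of variation of a member had a median of 19.4% in group 1, 10.5% in group 2, 13.2% in group 3 and 33.8% in 2n. Over the genes at or above the lowest member level, these medians were 26.3% in group 1, 12.4% in group 2, 15.4% in group 3 and 28.8% in 2n. The members were thus most variable in the diploid males, as were the other genes.

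The members were scattered over the genome. They lay on 70 sequences, 66 of them on 37 of the 50 numbered chromosomes, 1 on a sequence named LG30F and 33 on unplaced scaffolds. Unplaced scaffolds held 27.7% of all genes outside the mitochondrial genome and 18.9% of those at or above the lowest member level. No chromosome held more than 4 members, the number on each of chromosomes 27, 31 and 38. A single pair lay within 1 Mb of each other, at rank 18 (chromosome 31, 1088963 to 1091837) and rank 67 (chromosome 31, 1025024 to 1029990), with 58973 bp between them. The median member had 8 exons and 2239 bp of exon, against 6 exons and 1748 bp for all genes outside the mitochondrial genome and 10 exons and 2251 bp for genes at or above the lowest member level, and 53 members were on the plus strand.

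Members with a single exon numbered 7 (7%), against 15.7% of all genes outside the mitochondrial genome and 2.44% of the 32683 genes at or above the lowest member level. They are at ranks 7, 13, 15, 16, 40, 48 and 91, and their fold lay between 4.14 and 64.5; as a set they were chosen after their values were seen. Rank 13 (chromosome 40, 10848731 to 10853350, minus strand, 4620 bp) had 8.93, 7.26, 5.41, 7.02 and 6.36 CPM in group 1, against 42.6, 36.6, 40.1, 28 and 44.3 CPM in group 2, 31 to 36.8 CPM in group 3 (median 32.7) and 16.5 to 94 CPM in 2n (median 33.7). Rank 16 (scaffold QPKE01003333.1, 5085 to 11072, minus strand, 5988 bp) had 1.53, 1.31, 1.79, 0.883 and 0.707 CPM in group 1, against 6.93, 7.99, 5.62, 4.05 and 7.29 CPM in group 2, 3.43 to 5.01 CPM in group 3 (median 3.69) and 4.1 to 47.5 CPM in 2n (median 9.08). In both, 1 or more diploid males were far above all triploid males. Rank 40 (chromosome 4, 5985090 to 5986796, plus strand, 1707 bp) had 0.34, 0.549, 0.48, 0.345 and 0.275 CPM in group 1, against 1.47, 1.32, 1.23, 2.02 and 2.28 CPM in group 2, 1.77 to 2.5 CPM in group 3 (median 1.87) and 0.847 to 2.31 CPM in 2n (median 1.41). Ranks 15 and 48 share an exon length of 4656 bp, and rank 91 (scaffold QPKE01006289.1, 186946 to 191568) has 4623 bp. Of all members, 6 share an exact exon length with another member, ranks 15 and 48 among them. Whether members of like exon length are copies of each other was not tested. Their values are uncertain where reads match more than 1 copy.

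Groups 2 and 3 were set against 2n to see how the members varied among the males that were not low. All 100 members passed the filter on low counts. In group 2, 24 members were higher than in 2n and 9 were lower, by edgeR's quasi-likelihood test at an adjusted p under 0.05. Of all 42352 genes tested, 13.7% were higher and 20.7% were lower. In group 3, 31 members were higher than in 2n and 11 were lower, against 17.4% higher and 26.3% lower of all genes. The median log2 fold change of the members was 0.15 in group 2 and 0.22 in group 3, beside -0.11 and -0.10 over all genes tested. The rule asked for a high value in the lowest of these 21 libraries, which was a 2n male for 74 members. The shares of higher and lower members are thus not independent of the choice. Nor are the fold changes, standard errors and p-values of single members against 2n, here and below. Groups 2 and 3 share their 2n males, so their calls are not independent: 22 members were called higher in both, 7 lower in both and 54 in neither. The same joint counts were not made over all genes, so these show nothing particular to the members.

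Ranks 8, 36 and 77, whose values by library are given above, were higher in groups 2 and 3 than in 2n. Rank 8 averaged 10.1 CPM ± 1.99 (SD, n = 5) in group 2, 9.57 CPM ± 1.47 (n = 6) in group 3 and 3.21 CPM ± 2.51 (n = 10) in 2n. Its log2 fold change was 1.88 ± 0.37 (SE, edgeR adjusted p = 0.000511) in group 2 and 1.82 ± 0.36 (edgeR adjusted p = 0.000333) in group 3. The groups overlapped in 1 diploid male. Rank 36 averaged 10.7 CPM ± 2.62 (SD) in group 2 and 11.0 ± 2.54 in group 3, against 3.48 ± 1.68 in 2n, with no overlap between triploid groups 2 and 3 and 2n. Its log2 fold change was 1.86 ± 0.32 (SE, edgeR adjusted p = 0.000123) in group 2 and 1.93 ± 0.31 (edgeR adjusted p = 3.52e-05) in group 3. Rank 77 averaged 23.5 CPM ± 2.32 (SD) in group 2 and 20.4 ± 5.05 in group 3, against 8.5 ± 4.38 in 2n. Its log2 fold change was 1.71 ± 0.38 (SE, edgeR adjusted p = 0.00132) in group 2 and 1.55 ± 0.36 (edgeR adjusted p = 0.00156) in group 3.

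Other members were lower in groups 2 and 3 than in 2n, and lower still in group 1. Rank 57 (scaffold QPKE01000019.1, 21943 to 25977, minus strand, 6 exons) had 10.5, 11.0, 7.86, 6.37 and 8.41 CPM in group 1, against 18.1, 16.4, 13.9, 20.8 and 18.3 CPM in group 2, 15.3 to 23.4 CPM in group 3 (median 18.2) and 13.4 to 198 CPM in 2n (median 59). The diploid males were widely spread and the lowest of them lay below every group 2 male. Its log2 fold change from 2n was -2.08 ± 0.41 (SE, edgeR adjusted p = 0.000463) in group 2 and -1.98 ± 0.38 (edgeR adjusted p = 0.000243) in group 3. Rank 21 (chromosome 29, 11820317 to 11846052, plus strand, 17 exons) had 1.91, 1.86, 1.53, 2.23 and 1.81 CPM in group 1, against 4.81, 4.41, 3.68, 4.09 and 5.2 CPM in group 2, 4.58 to 5.1 CPM in group 3 (median 4.78) and 6.47 to 19.4 CPM in 2n (median 11.8). Group 1, groups 2 and 3 together, and 2n did not overlap, with 2n highest. The log2 fold change was -1.17 ± 0.23 (SE, edgeR adjusted p = 0.000439) in group 2 and -1.03 ± 0.21 (edgeR adjusted p = 0.000537) in group 3. Rank 91 had 0.255, 0.211, 0.0873, 0.154 and 0.118 CPM in group 1, against 0.91, 0.562, 0.387, 0.344 and 0.673 CPM in group 2, 0.47 to 0.715 CPM in group 3 (median 0.618) and 0.656 to 3.91 CPM in 2n (median 1.56). Its groups 2 and 3 overlapped the lowest diploid males. The log2 fold change was -1.28 ± 0.35 (SE, edgeR adjusted p = 0.00684) in group 2 and -1.24 ± 0.32 (edgeR adjusted p = 0.0038) in group 3. Rank 16 was lower in group 3, by -1.49 ± 0.41 (SE, edgeR adjusted p = 0.00538), and in group 2 it did not pass the test (-0.81 ± 0.42, edgeR adjusted p = 0.139). With only the diploid males of number 108, the group 3 value of rank 16 was -0.36 (edgeR adjusted p = 0.163).

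**Figure D3:**
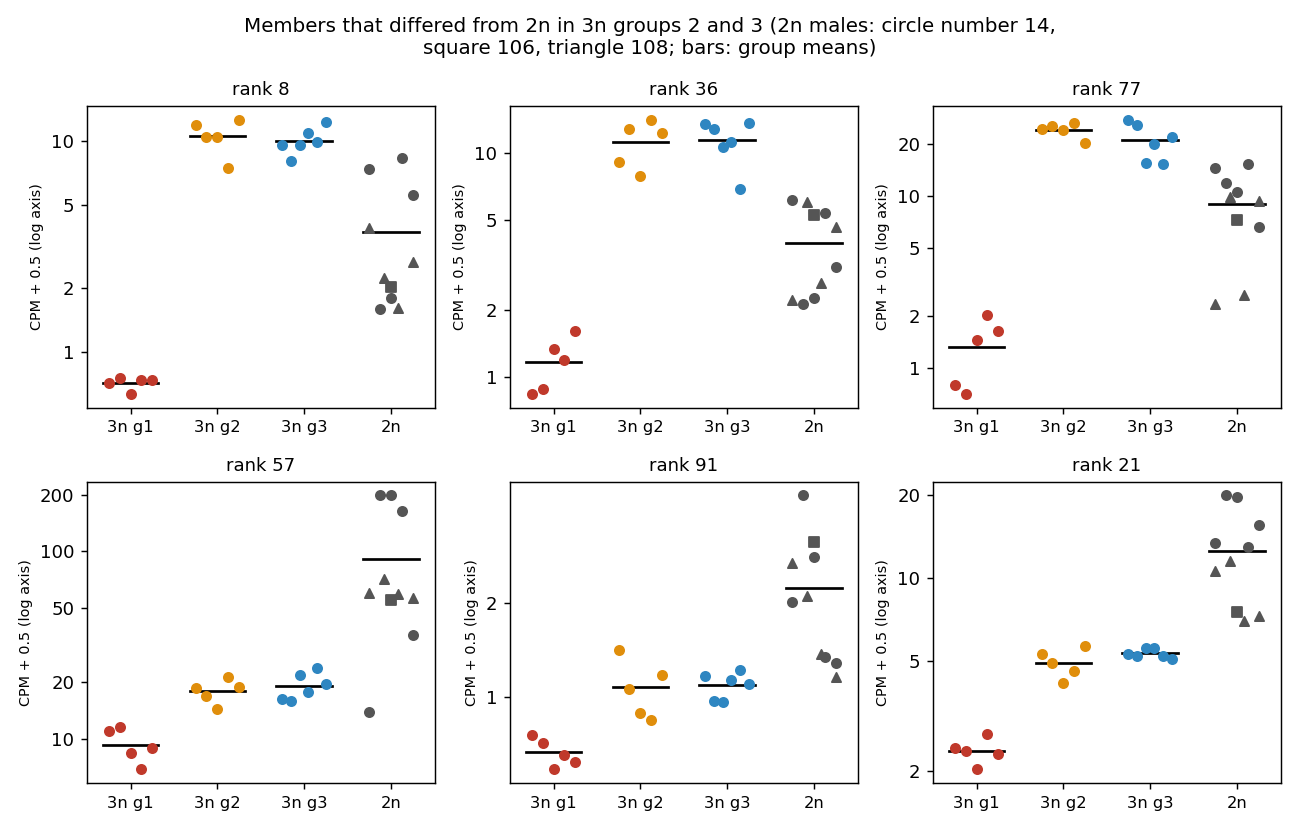
CPM + 0.5 on a log axis for 6 members, with 1 point per library, bars at group means, and groups from left to right 3n group 1, 3n group 2, 3n group 3 and 2n; symbols divide the 2n males by library-name number. Ranks 8, 36 and 77 (top) were higher in groups 2 and 3 than in 2n, and ranks 57, 91 and 21 (bottom) were lower, with group 1 lowest in all 6.

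Between group 2 and group 3, which share the description of the mother and differed in temperature, 0 members were called by edgeR (0% of all 42352 genes) and 0 by DESeq2. The log2 fold changes of the members ran from -0.44 to 0.72 with a median of -0.06, beside 0.01 over all genes. At an unadjusted p under 0.05 there was 1 member, rank 4 (0.72 ± 0.25 SE, edgeR adjusted p = 1), and 2.57% of all genes. Rank 4 averaged 2.62 CPM in group 2 and 1.57 CPM in group 3.

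The diploid males differed among themselves. Between the 5 males of number 14 and the 4 of number 108, 20 members were higher and 9 lower in number 14, against 14.3% higher and 14.8% lower of all 46601 genes tested in the model that divides 2n. The split was 17 higher and 13 lower with upper quartile normalization, with which 10.4% of all genes were higher and 18.2% lower. The rule used the lowest of the 21 other libraries, which was a 2n male for 74 members. The shares and p-values of members between these diploid males, here and below, are thus not independent of the choice. The test also estimated the spread of each gene over all 26 libraries, not over the diploid males alone. For the members, the median coefficient of variation was 33.8% in 2n, but 19.4%, 10.5% and 13.2% in groups 1, 2 and 3. The p-values here can therefore be too small, and no fit on the diploid males alone was made. Rank 65 (scaffold QPKE01002863.1, 11590 to 19257, minus strand, 13 exons) averaged 49.6 CPM ± 27.2 (SD, n = 5) in number 14 and 15.7 ± 7.72 (n = 4) in number 108 (log2 fold change 1.83 ± 0.42 SE, edgeR adjusted p = 0.00244). Its group 1 males had 2.72, 4.1, 4.63, 4.72 and 4.24 CPM. Rank 16 averaged 19.9 CPM ± 15.8 (SD) in number 14 and 6.35 ± 1.74 in number 108 (1.77 ± 0.37 SE, edgeR adjusted p = 0.00125). Without 2n replicate 7, which stood at 47.5 CPM, the log2 fold change of rank 16 was 1.08 (edgeR adjusted p = 0.0018). Rank 1 averaged 44.7 CPM in number 14, with values from 30.6 to 79, and 19.6 CPM in number 108, with values from 11.0 to 27.8 (1.27 ± 0.25 SE, edgeR adjusted p = 0.000596).

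The largest differences in the other direction were at ranks 78, 54 and 48. Rank 78 averaged 0.684 CPM ± 0.332 (SD, n = 5) in number 14 and 2.58 ± 1.11 (n = 4) in number 108 (-1.79 ± 0.33 SE, edgeR adjusted p = 0.000372). Rank 54 averaged 0.832 CPM ± 0.212 in number 14 and 2.94 ± 0.946 in number 108 (-1.71 ± 0.27 SE, edgeR adjusted p = 5.48e-05), with no overlap between them. Rank 48 averaged 0.539 CPM ± 0.339 in number 14 and 1.51 ± 1.05 in number 108 (-1.38 ± 0.44 SE, edgeR adjusted p = 0.0224). The call at rank 48 was lost without 2n replicate 2 (edgeR adjusted p = 0.0513), replicate 4 (0.158) or replicate 10 (0.0536).

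Genes near the members were not picked by the rule, and could be tested in group 1. A total of 805 non-member genes lay within 100 kb of a member on the same sequence, genes that overlap a member included. Of the 805, 605 passed the filter on low counts. Against group 2, 135 of the 605 neighbours (22.3%) were lower in group 1 and 132 (21.8%) were higher, beside 21.8% lower and 24.9% higher of all genes by the same test. Against group 3, 153 (25.3%) were lower and 171 (28.3%) higher, beside 25.4% lower and 29.9% higher of all genes. Against 2n, 111 (18.3%) were lower and 88 (14.5%) higher, beside 17.4% lower and 14.6% higher. The neighbours were thus called lower about as often as genes in general, and their median log2 fold change (0.08, 0.04 and -0.04 against group 2, group 3 and 2n) was near that of all genes (0.10, 0.09 and -0.05). With upper quartile normalization, the median of all genes against group 2 rose to 0.30. Then 95 neighbours were lower and 205 higher than in group 2, and 111 lower and 235 higher than in group 3. Against 2n, 58 were lower and 131 higher. The shares of all genes called lower were then 16.1%, 17.5% and 9.79%, and those called higher were 34.9%, 40% and 21%. Without group 1 replicates 1 and 2, 79, 99 and 53 neighbours were lower in group 1 than in group 2, group 3 and 2n, and 11.4%, 15.9% and 7.44% of all genes.

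**Figure D4:**
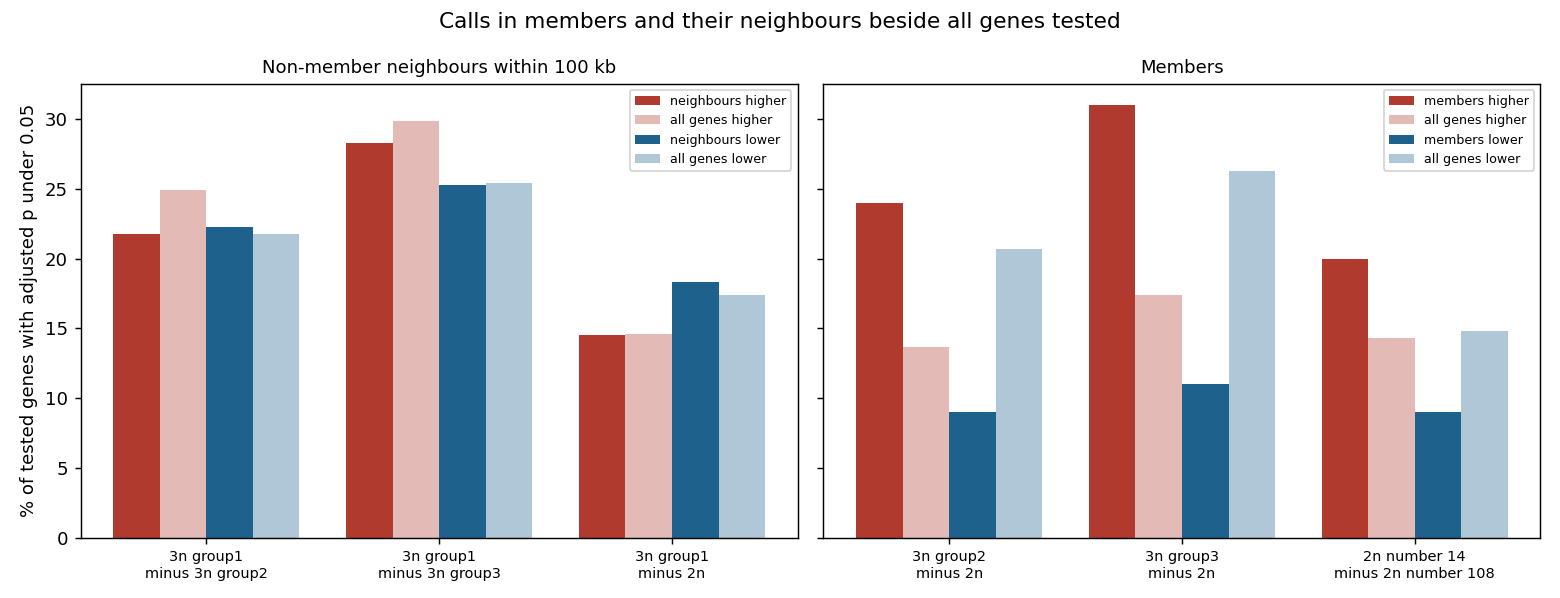
Share of tested genes called higher (red) or lower (blue) at an edgeR adjusted p under 0.05, for neighbours within 100 kb of a member (left) and for members (right), each dark bar beside a pale bar for all genes tested. The neighbour bars are close to those of all genes. In group 2 against 2n, 24% of members were higher and 9% lower, beside 13.7% and 20.7% of all genes. The member bars are not independent of the choice of members, since the rule used the lowest of the 21 libraries outside group 1.

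Genes that overlap a member were also examined, since reads there can be hard to assign. On the same strand, 15 genes overlapped 11 of the members, and 8 of these genes were tested. Of the 8, 3 were lower and 1 higher in group 1 than in group 2, 4 lower and 1 higher than in group 3, and 4 lower and 0 higher than in 2n. Those lower in all 3 comparisons overlapped ranks 19, 34 and 42. In that order, the non-members lie at chromosome 40, 15780991 to 15827574, chromosome 34, 3122011 to 3184676, and chromosome 23, 232298 to 375340. They were named after their values were seen. On the other strand, 15 genes overlapped 14 members and 8 were tested, of which 1 was lower and 1 higher in group 1 than in group 2, 1 lower and 2 higher than in group 3, and 1 lower and 1 higher than in 2n. By edgeR, 21.8%, 25.4% and 17.4% of all genes were lower in group 1 than in group 2, group 3 and 2n. The shares higher were 24.9%, 29.9% and 14.6%. With 8 genes tested per strand, the counts are too few to set against these shares. Per the file headers reads were counted by strand, so the level of a member and of its antisense partner were counted apart.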

How the data were processed

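Poly(A)-enriched, strand-specific libraries with molecular identifiers were made from testis RNA and sequenced as read pairs, per the labels' protocols. Tools listed, without role or order, per the submitters' processing notes: STAR 2.7.3a, Subread 2.0, featureCounts, Picard 2.25.6, cutadapt 4.3, MultiQC 1.10.1, FastQC. The deposited values are raw read counts per gene from featureCounts 2.0.6, in reverse-stranded mode (setting 2), with no minimum mapping quality (0), on goldfish annotation ASM336829v1-104, per the file headers. The same deposited table gives other gene data (position, exon length). Genes that share reads with a near copy, or overlap another gene, are uncertain. Whether duplicates were removed was not given in the sources used here. All 26 libraries were used, and no pair held identical values (lowest chi-square per gene 4.23).

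The members, and the tests and lists, were chosen with earlier results of these data known. CPM used column totals. Tests were edgeR 4.0.16 quasi-likelihood (R 4.3.3, limma 3.58.1) with TMM, the low-count filter (minimum count 10), robust estimation and Benjamini-Hochberg adjustment over all genes tested. A model of 4 groups was used, or of 6 with 2n divided by library-name number. Each model estimated the spread of a gene over all libraries together. Standard errors come from the F statistic. In data simulated for group 2 against 2n (41676 genes), calls recovered 19.4% of 1.5-fold changes, 59.7% of 2-fold and 90.9% of 4-fold ones. The simulation changed 67, 67 and 66 genes at these folds, far fewer than the 5819 higher and 8758 lower called in the data. The recovered shares therefore do not give the power of the tests reported here. Named are ranks 1 to 10, the 5 members with the highest mean CPM outside group 1, the called members with the largest fold changes (at most 3 per direction) and those at the limit; others are named as chosen later. Alternatives were other normalizations, no filter, DESeq2 1.42.0, a replicate block, fewer samples and other neighbour distances. IDs are printed for 2 members only, as none has a name.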

Additional observations from a re-analysis of the deposited data

Results flagged for a closer look

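For 30 members named in the text, each of 4 groups was examined for a male far from the rest (120 sets), and 7 were found; chance alone flags about 1 in 20 sets. Rank 1 was at 15.9 CPM in group 2 replicate 3, below the 21.7 to 23.1 CPM of the other group 2 males, and at 79 CPM in 2n replicate 2, above the 11.0 to 44.5 CPM of the other diploid males. Rank 9 was at 20.3 CPM in 2n replicate 3, the only male of number 106, against 9.42 to 14.6 CPM in the other diploid males. Rank 15 was at 7.3 CPM in group 3 replicate 5, against 2.51 to 3.97 CPM in the other group 3 males. Rank 16 was at 47.5 CPM in 2n replicate 7, against 4.1 to 18.5 CPM in the other diploid males. Rank 63 was at 186.5 CPM in group 3 replicate 5, against 196 to 201 CPM in the rest of its group. Rank 99 was at 2.7 CPM in group 1 replicate 2, against 1.66 to 1.92 CPM in the other group 1 males, and this value set its ratio.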

How the results depend on the processing

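The choice of members depended on scaling and on single libraries. Of the 100 members, 94 were kept with 0.1 CPM added and 95 with 1 CPM, but 54 with TMM-scaled libraries, 16 when medians were set against each other in place of extremes, and 63 without group 1 replicates 1 and 2, a setting added after the data were seen. Leaving out 1 male kept 75 to 100. The median log2 fold of the members in group 1 was -1.61, -1.96 with TMM and -1.99 with relative log expression, both added later, beside 0.23, -0.10 and -0.13 over genes at or above the lowest member level; leaving out 1 male gave -1.67 to -1.54. For group 2 against 2n the count of members called was 33 (27 to 35 without 1 male), for group 3 against 2n 42 (35 to 51), for group 2 against group 3 0 (0 to 0) and for number 14 against number 108 29 (24 to 42). Under the other settings these counts stayed within 1.5 times the value given, except the replicate block for number 14 against number 108. Replicate numbers 7 to 10 occur only in 2n, so the block terms fitted those males exactly. That left 1 male, replicate 4, to stand for number 108. Calls lost in that fit, listed below, therefore do not show how far the result depends on the setting. With the replicate block 31 members were called in group 2 and 36 in group 3. Of all genes, 11.8% were then higher and 17.4% lower in group 2, and 15.5% higher and 21.4% lower in group 3. Shares of all genes under the main setting are given in the Results. Replicate numbers did not pair the males: among 31 pairs with 1 number, deviations from group means correlated over 0.1 in 8, and a male correlated best with its own number in 8 of 62 cases. Neighbours lower in group 1 than in group 2, group 3 and 2n numbered 135, 153 and 111 (105 to 131, 135 to 149 and 80 to 127 without 1 male). Within 50 kb they were 77, 84 and 68 of 372 tested, and within 1 Mb 873, 1045 and 696 of 3927 tested. Without group 1 replicates 1 and 2 they were 79, 99 and 53. Against 2n they were 55 when only these 2 groups were fitted and 58 with upper quartile normalization, and 7.85% and 9.79% of all genes were lower there. The counts at other distances follow from the number of genes; the other causes were not tested. Of the values of named members under other settings, 370 kept their call and 8 lost it, with 0 reversed: ranks 65, 16, 1 and 48 for number 14 against 108 with the replicate block, and ranks 48 and 16 as given above. Low levels limit precision: 5 members had 0 counts in at least 1 group 1 library.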
